A study of Mus musculus with 10 samples.

Results

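Cytoskeletal genes of dividing muscle stem cells were examined for elongating RNA polymerase II and for monomethylated histone H4. The 7 genes were Actb, Actg1, Myh9, Tpm1, Tpm4, Vim and Tagln2, taken by symbol, and every peak listed under these symbols was taken singly and summed by gene identifier. All 7 were listed among the 11251 genes with a peak of elongating RNA polymerase II (Pol II S2P, the enzyme with phosphate on serine 2 of its tail repeats), with 101 of 51322 peaks. Only 5 of the 7 were listed among the 14565 genes with a peak of histone H4 monomethylated at lysine 20 (H4K20me1), each with 1 of 44925 peaks, and Actb and Tagln2 were listed with none.

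The cells were muscle stem cells (MuSCs, the satellite cells of skeletal muscle) of adult mice, purified with magnetic beads and cultured. CUT&RUN was used, in which an antibody brings a nuclease to its target and the DNA fragments cut free there are sequenced. Control cells (Ctrl) were labelled Pax7CreERT/Suv4-20h1WT and mutant cells (sKO) Pax7CreERT/Suv4-20h1KO, so that both carried the tamoxifen-inducible Cre driven by Pax7, which limits the deletion of Suv4-20h1 (Kmt5b, a methyltransferase of H4K20) to cells that express Pax7. Each genotype had 2 libraries for each antibody, 8 in all, and the labels do not say whether they came from separate mice. The values are scores, whole numbers per peak and library that stand for coverage normalised to spike-in DNA, and a peak's score grows with its length.

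Actb and Actg1 encode the cytoplasmic beta and gamma actins, which polymerise into the filaments that shape and move a dividing cell. Tropomyosins, encoded by Tpm1 and Tpm4, lie along these filaments, Tagln2 (transgelin 2) is an actin-binding protein, and Myh9 encodes the heavy chain of non-muscle myosin IIA, the motor that pulls on them. Vim encodes vimentin, the intermediate filament protein of mesenchymal cells, which is abundant in activated myoblasts and gives way to desmin and the sarcomere as they differentiate. H4K20me1 is a mark of gene bodies that accumulates towards mitosis and is the substrate from which KMT5B makes the dimethylated form, and phosphorylation of serine 2 builds up along genes towards and past the site where transcripts end.

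The libraries differed in total score. Both sKO libraries had larger H4K20me1 totals (32194136 and 35046570) than either Ctrl library (15218720 and 20432644), whereas the Pol II S2P totals, between 3257665 and 4885638, overlapped. Over Kmt5b, the deleted gene, the Pol II S2P sums were low in every library (24, 62, 48 and 22 in the order Ctrl 1, Ctrl 2, sKO 1, sKO 2) and under the minimum for testing, and the H4K20me1 sums were 1332, 1740, 1934 and 2196 (adjusted p = 0.118, limma), so neither checked the labels. Of 10 markers of muscle stem cells and myoblasts 8 had Pol II S2P peaks, with summed scores of 6502 to 9401 per library. Among the markers of other cells, 1 of 5 for fibroblasts (summed scores 36 to 67), 2 of 5 for endothelium (133 to 256), 2 of 5 for blood (874 to 1368, of which Cd68 held 840 to 1308, with no Ptprc peak) and 3 of 5 for smooth muscle and pericytes (1143 to 1988, of which Notch3 held 837 to 1595, with no Myh11 peak) were listed. For each of these sums the Ctrl and sKO ranges overlapped, and their part in the results was not tested.

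Pol II S2P was high on all 7 genes in every library. Their summed scores lay between the percentiles 83.9 and 99.8 of the 8531 autosomal genes that passed a minimum mean score of 50, and between the percentiles 75.5 and 99.8 once divided by gene length. The scores are given for Ctrl 1, Ctrl 2, sKO 1 and sKO 2 in that order throughout, and positions are on GRCm38. Beta actin gene Actb (ENSMUSG00000029580, chromosome 5, 142903115 to 142906754, minus strand) had 3116, 3591, 4447 and 2755 over 3 peaks. Its paralogue Actg1 (ENSMUSG00000062825, chromosome 11, 120345690 to 120348542, minus strand) had 1799, 1975, 2052 and 1324 over 5 peaks. In both actin genes the highest and the lowest library were the sKO pair, and the Ctrl pair lay between them. The coding sequences of these genes are 1128 bases long and shared 88.65% of bases position by position, with a longest identical run of 62 bases. That run was measured on spliced sequence, not on the genome to which the reads were aligned. The authors kept unique alignments only, and whether reads were lost from either gene was not tested.

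The tropomyosin genes had overlapping groups as well. Tpm1 (ENSMUSG00000032366, chromosome 9, 67022590 to 67049406, minus strand) had 1304, 1413, 1478 and 1196 over 19 peaks. Tpm4 (ENSMUSG00000031799, chromosome 8, 72130174 to 72153142, plus strand) had 564, 704, 628 and 469 over 9 peaks. The Ctrl scores of Tpm1 lay between those of sKO, and in Tpm4 sKO 2 was lowest and Ctrl 2 highest. Tagln2 (ENSMUSG00000026547, chromosome 1, 172500047 to 172507380, plus strand) had 735, 841, 795 and 647 over 6 peaks. Myh9 (ENSMUSG00000022443, chromosome 15, 77760587 to 77842175, minus strand) had 3965, 5087, 5499 and 3766 over 50 peaks. Vim (ENSMUSG00000026728, chromosome 2, 13573927 to 13582826, plus strand) had 2941, 2409, 2902 and 2076 over 9 peaks. In Tagln2, Myh9 and Vim too the Ctrl and sKO scores overlapped, and sKO 2 was the lowest library for each of the 7 genes.

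Per kb of gene the order of Pol II S2P in Ctrl was Actb at 921 ± 92.3 (SD, n = 2), Actg1 at 661.5 ± 43.6, Vim at 300.5 ± 42.2, Tagln2 at 107.5 ± 10.3, Myh9 at 55.5 ± 9.72, Tpm1 at 50.7 ± 2.87 and Tpm4 at 27.6 ± 4.31. Myh9 and Tpm1 did not differ beyond their spread, with 48.6 and 62.4 against 48.6 and 52.7 in the Ctrl libraries, and each other pair of neighbours was separated in Ctrl. The order was the same in sKO. It rested in part on peaks that run past the gene, because the scores of Actb, Actg1 and Vim include such a peak. When the peaks centred past the gene end were left out, Ctrl had 206 ± 46.0 per kb at Actb, 163 ± 47.9 at Vim, 107 ± 10.2 at Tagln2 and 88.5 ± 3.72 at Actg1, and the other 3 genes were unaffected. Actg1 thus moved from the second place to the fourth, and the Ctrl libraries of Actb and Vim overlapped.

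**Figure D1:**
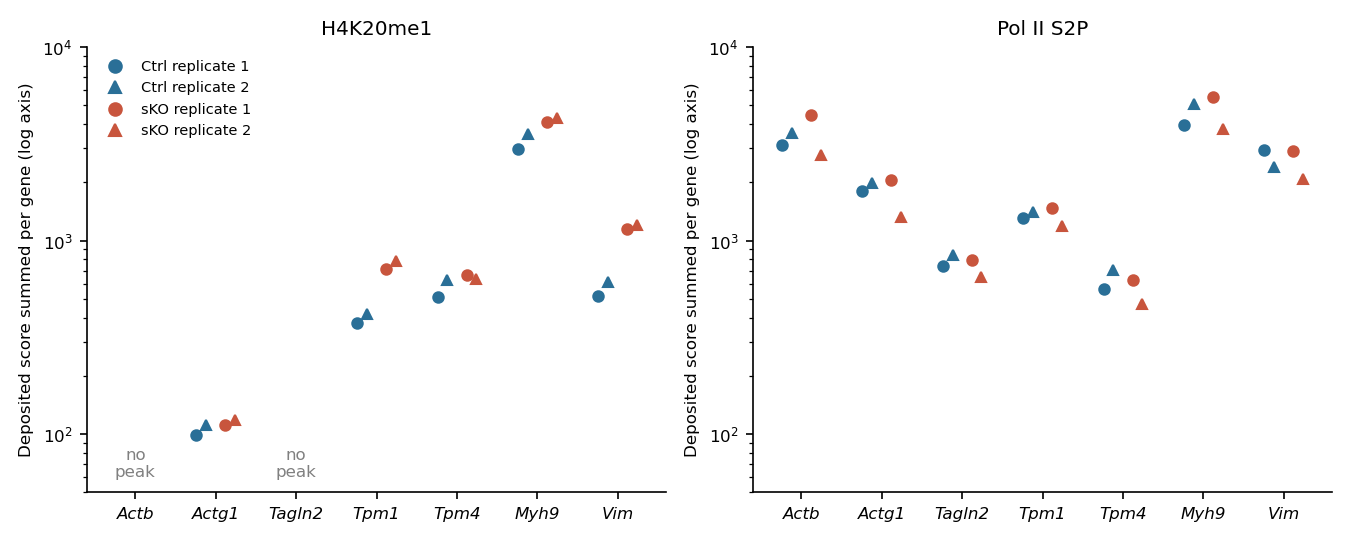
Deposited scores summed per gene (vertical log axes, score units) for H4K20me1 (left) and Pol II S2P (right) in each library, with circles for replicate 1 and triangles for replicate 2, blue for Ctrl and red for sKO. Both sKO libraries lie above both Ctrl libraries for H4K20me1 at Tpm1, Tpm4, Myh9 and Vim, while the genotypes overlap for Pol II S2P at all 7 genes.

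Pol II S2P lay over the annotated start of 6 of the 7 genes. The start peak had 90, 78, 104 and 59 at Actb, 180, 152, 154 and 109 at Actg1 and 371, 476, 458 and 265 at Myh9. It had 101, 133, 127 and 91 at Tagln2, 123, 117, 87 and 121 at Tpm1 and 698, 461, 494 and 345 at Vim. Per kb of peak the start of Myh9 was the highest of the peaks listed with that gene, at a score of 396.5 against 62.2 to 255 for the 49 peaks inside it. All 6 start peaks had log2 fold changes below 0, from -0.46 to -0.10, beside 49.2% of the 3907 tested peaks over starts of protein-coding genes and 35.3% of all peaks tested, and none was called on the deposited scale. With the libraries scaled to equal totals only the start peak of Vim was called, lower (-0.60). At Tpm1 a second peak inside the gene (67043754 to 67044359) covered the starts of a further 4 protein-coding transcripts and had 158, 180, 116 and 85, with both sKO libraries below both Ctrl. Tpm4 had no peak over its deposited start, and its first peak began 5148 bases downstream, 63 bases from the start of an annotated transcript in GENCODE M21.

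The sequences before the starts of Actg1 and Myh9 are shown because a Pol II S2P start peak covered each of them and because one of them holds a CArG box, to which the factor SRF binds in actin genes. They were read from the RefSeq promoter table of GRCm38.p6, run 5′ to 3′ on the strand of the gene, and end where the annotated exon begins. Capitals mark the CArG box and matches of GGGCGG, which reads CCGCCC on the other strand. A further GGGCGG in Actg1 that overlaps a marked match was not marked separately.
Actg1, chr11:120348543-120348745, minus strand: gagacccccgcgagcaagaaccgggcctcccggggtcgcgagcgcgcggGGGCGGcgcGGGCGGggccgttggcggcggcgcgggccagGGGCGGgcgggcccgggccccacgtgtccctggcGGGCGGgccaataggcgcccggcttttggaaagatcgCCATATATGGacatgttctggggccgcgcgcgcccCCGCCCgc
Myh9, chr15:77842176-77842425, minus strand: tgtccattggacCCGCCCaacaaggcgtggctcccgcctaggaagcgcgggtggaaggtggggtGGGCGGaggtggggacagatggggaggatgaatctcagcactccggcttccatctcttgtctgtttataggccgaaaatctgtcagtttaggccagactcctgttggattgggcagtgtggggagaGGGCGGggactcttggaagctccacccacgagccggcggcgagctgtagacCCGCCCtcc

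Of the 7 genes 6 had an entry in the table, all but Actb. In the 250 bases before the RefSeq start, searched on both strands, Actg1 held the only CArG box of the 6, CCATATATGG beginning 90 bases before the start, a motif found in 1.47% of 32851 promoters. GGGCGG was found in 5 of the 6 (all but Vim) and in 32.7% of promoters, CCAAT in 4 of the 6 (Actg1, Myh9, Tpm1 and Vim) and in 33.9%, and TATAAA in 2 of the 6 (Vim and, on the other strand, Myh9) and in 12.4%. No match of one motif overlapped a match of another in these promoters, and a match describes letters, not binding.

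Every one of the 7 genes had Pol II S2P past its end. In the 5 kb beyond the gene end the peaks, whichever gene they were listed with, gave scores between the percentiles 87.4 and 99.95 of 7702 protein-coding genes, of which 56.1% had any peak there. At Actb a single peak of 7283 bases (142896020 to 142903302) began within the last exon and ran downstream with 2247, 2959, 3751 and 2342. At Actg1 a peak of 3230 bases (120342508 to 120345737) had 1539, 1730, 1800 and 1162. At Vim a peak of 4855 bases (13581742 to 13586596) had 1189, 1260, 1724 and 1220. These 3 peaks held more score than all other peaks of Actb and Actg1 together in every library, and than all others of Vim in every library but Ctrl 1. Past the other genes the peaks were listed with another gene or with none: with Apol8 at Myh9, with the antisense gene Gm16091 at Tpm4, and with no gene at Tpm1 and Tagln2. CUT&RUN reads carry no transcript strand, so signal of a gene and of an overlapping neighbour cannot be told apart.

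The share of Pol II S2P score that lay past the end, out of the score of peaks centred inside the gene or within 5 kb beyond it, is unaffected by how libraries are scaled to each other. It leaves out the start peaks of Actg1 and Myh9, which are centred before the gene, and counts the whole of the long Actb peak, which reaches beyond those 5 kb. At Actb it was 72.1%, 82.4%, 84.4% and 85.0%. At Vim it was 40.99%, 53.5%, 60.6% and 59.7%. In both genes Ctrl 1 was the lowest library and stood apart from Ctrl 2, and the sKO shares also lay above that of Ctrl 2 alone. Tpm1 had 30.0%, 32.9%, 39.4% and 36.5%, and Tpm4 had 54.4%, 55.8%, 59.5% and 58.3%. In these 4 genes both sKO libraries were above both Ctrl libraries, beside 28.0% of 3969 genes with score in both places (13.7% had both below). Actg1 (95.1%, 94.96%, 94.9% and 95.7%), Myh9 (15.7%, 13.1%, 15.4% and 13.5%) and Tagln2 (34.9%, 39.5%, 36.9% and 33.6%) overlapped. With 2 libraries against 2 an exact two-sided permutation test cannot give a p below 0.333, so the order of the libraries is given without one.

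**Figure D2:**
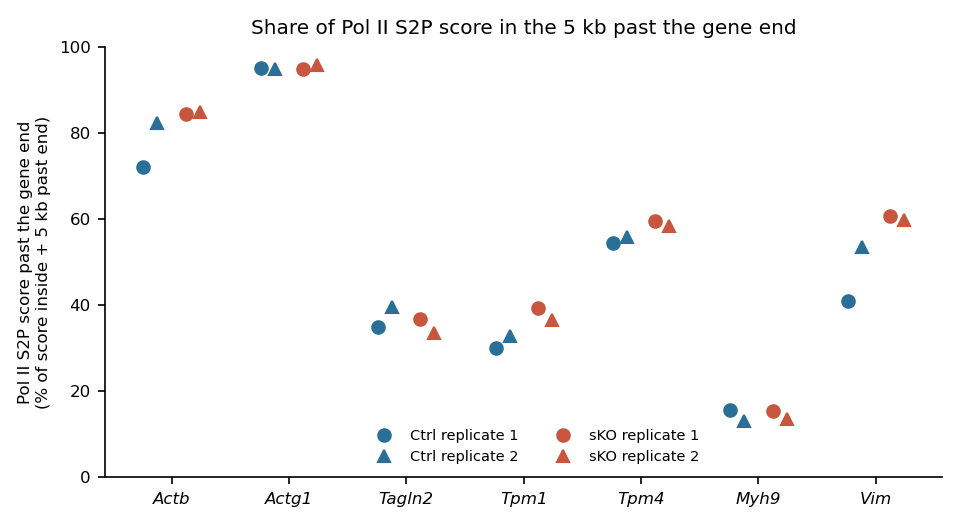
Percentage of Pol II S2P score in the 5 kb past the gene end (vertical axis), out of the score inside the gene and in that window, for each gene and library, with blue for Ctrl, red for sKO, circles for replicate 1 and triangles for replicate 2. Both sKO libraries lie above both Ctrl libraries at Actb, Tpm1, Tpm4 and Vim, and overlap them at Actg1, Tagln2 and Myh9.

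No difference in Pol II S2P between the genotypes was called at any of the 7 genes. The test was limma on log2(score + 1) over all 8531 genes, and a call needed a fold change of more than 0.5 on the log2 scale in either direction together with a p under 0.1 after Benjamini-Hochberg adjustment. It called 0.0% of all genes in either direction, with 1.17% at an unadjusted p under 0.05 and none of the 7 among them. The study, using DESeq2 on coverage of whole genes with the same limits, reported increased Pol II S2P at a large number of genes. Its test and its measure differ from those used here. The study also reported more Pol II S2P in the mutant cells by Western blot and higher average occupancy over gene bodies. It further reported more transcription by nuclear run-on sequencing, and by labelling of new RNA in replicating cells. None of these assays was examined here. The log2 fold changes (sKO minus Ctrl) were 0.07 ± 0.42 (SE) at Actb, with a 95% interval of -0.77 to 0.90, and -0.19 ± 0.43 at Actg1, with an interval of -1.03 to 0.65. The other 5 lay between -0.22 at Tpm4 and 0.02 at Myh9, and their intervals reached from -1.05 to 0.84. The median of the 7 was -0.12, against 0.09 over all genes. The intervals are wide enough to hold a change of 1.5-fold in either direction, so that equal signal was not shown. None of the 7 had groups that did not overlap, beside 9.41% of all genes with both sKO libraries above and 4.52% with both below.

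Single Pol II S2P peaks gave the same picture with more scatter. Of the 101 peaks 95 passed a minimum mean score of 20 and none was called, beside 0.00897% of 44587 peaks called higher and 0.00224% called lower. Both sKO libraries were below both Ctrl in 9 of the 95 (6.66% of all peaks tested) and above in 4 (17.2%). The median log2 fold change of the 95 was -0.01, against 0.15 over all peaks. An unadjusted p under 0.05 was reached by 2 peaks, beside 3.6% of all peaks. The first, in Tagln2 (172504777 to 172505157), had 51, 43, 15 and 20. The second, in Vim (13579883 to 13580931), had 400, 158, 152 and 117, so that Ctrl 1 alone stood apart. A neighbouring Vim peak (13579253 to 13579463), too low for the test, had 56, 2, 3 and 6, again high in Ctrl 1 only. Of the 101 peaks 45 overlapped an annotated exon, among them 13 of the 50 in Myh9 and 8 of the 9 in Vim.

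**Figure D3:**
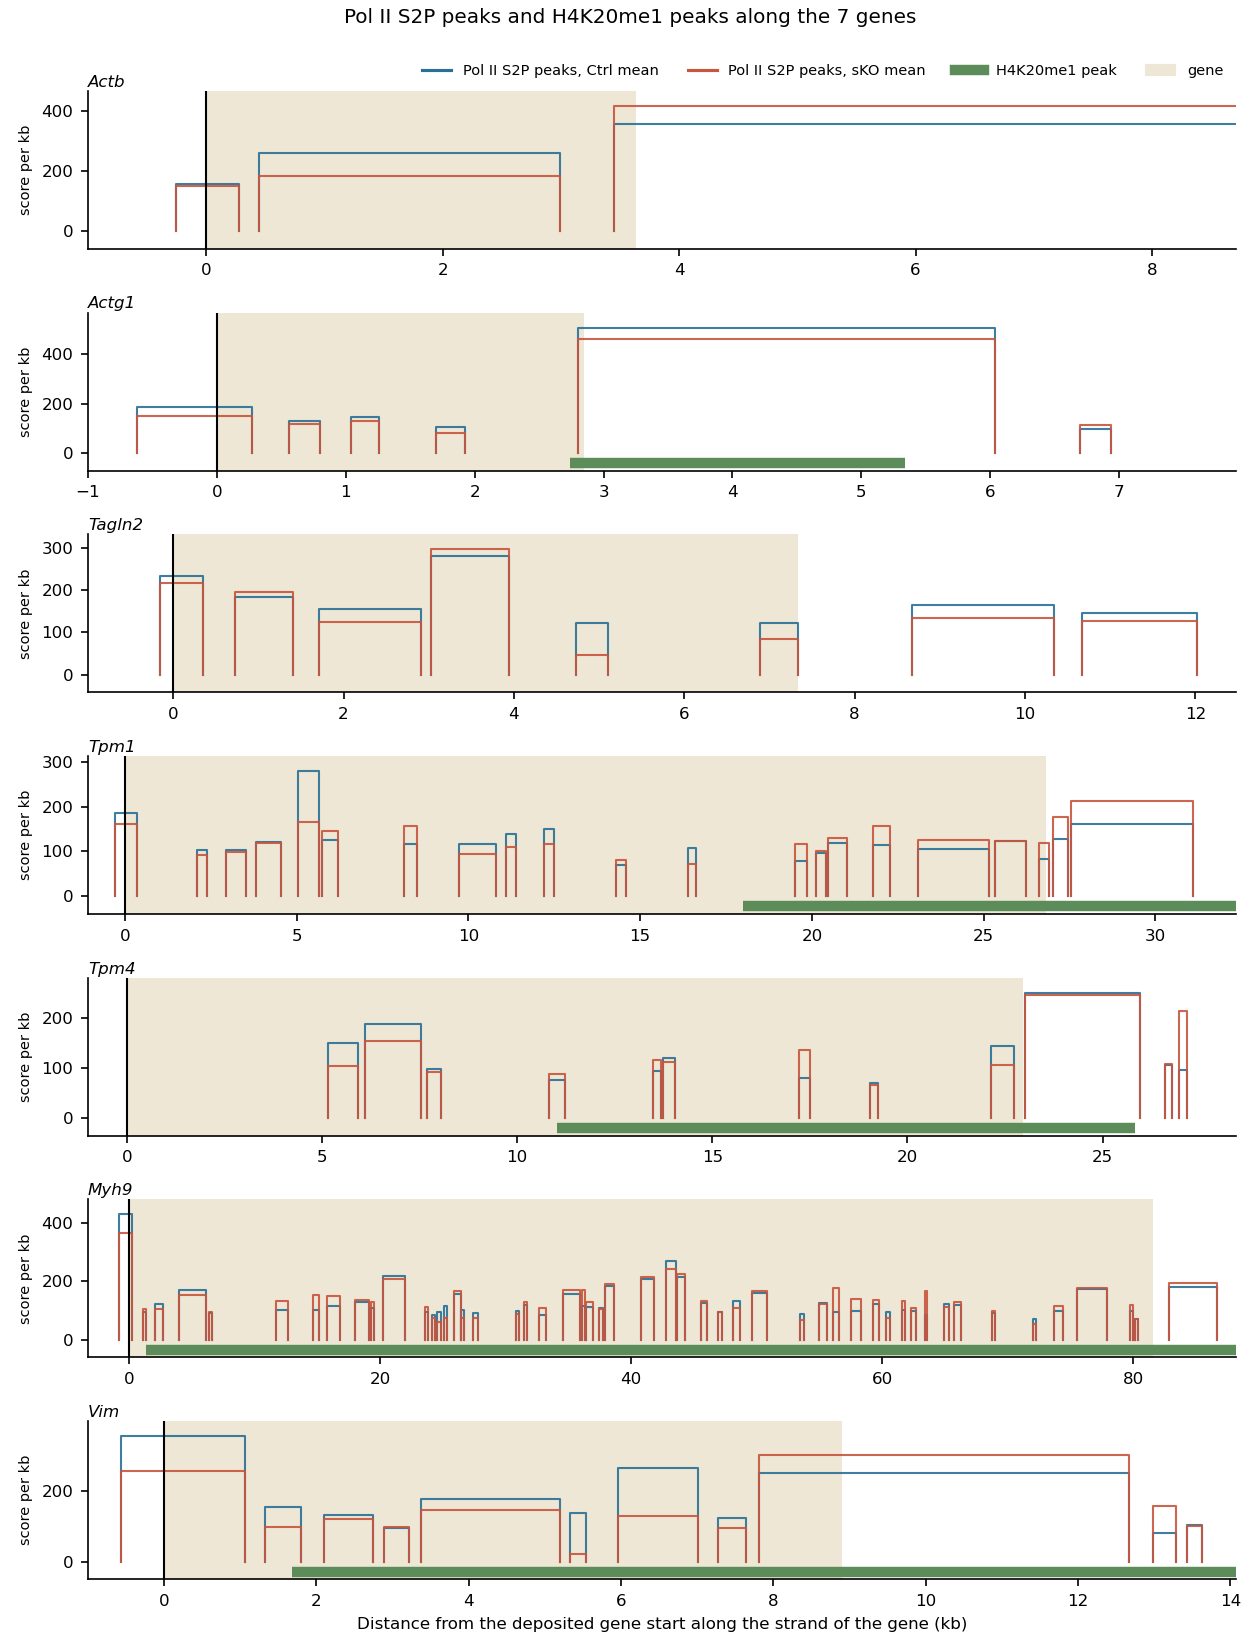
Pol II S2P peaks along the 7 genes, drawn as outlines from peak start to peak end at the mean score per kb of peak (vertical axis) in Ctrl (blue) and sKO (red), against distance from the deposited gene start in kb (horizontal axis, ending about 5 kb past the gene end). Shading marks the gene and the green bar the H4K20me1 peak listed with it, which covers no gene start and is missing at Actb and Tagln2. Peaks of H4K20me1 listed with other genes, such as that of Gm37125 past the end of Tagln2, are not drawn. The tallest Pol II S2P outlines of Actb, Actg1 and Tpm4 lie at or past the gene end.

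H4K20me1 peaks were absent from the starts of these genes. None of the 7 gene starts lay in an H4K20me1 peak, beside 49.0% of the 7702 protein-coding genes tested for Pol II S2P and 44.4% of the 771 with the highest Pol II S2P score per kb. The gene end lay in a peak in 5 of the 7 (70.5% of all), and some part of the gene in the same 5 (90.6%). The peak of Myh9 began 1376 bases from the start and ran over 90.8 kb, covering 98.3% of the gene. That of Vim began at 1673 bases and covered 81.2% of the gene within its 24.2 kb. The peak of Tpm4 began at 11026 bases and covered 52.0%, and that of Tpm1 began at 18007 bases and covered 32.9%. At Actg1 a peak of 2.6 kb touched only the last 3.86% of the gene and overlapped the long Pol II S2P peak past its end. The nearest H4K20me1 peak to the start of Actb was 21555 bases away, and that to the start of Tagln2 was 3448 bases away, listed with Igsf9.

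H4K20me1 was higher in sKO at nearly all genes on the deposited scale, and at these genes by less than at most. In bulk cells a larger share of cells that carry the mark and more mark in each cell cannot be told apart. The actin gene Actg1 had scores of 99, 112, 111 and 119, and the groups overlapped. Myh9 had 2964, 3543, 4112 and 4284, Tpm4 had 512, 625, 663 and 634, and in both genes the sKO scores lay above those of Ctrl, with sKO to Ctrl ratios of 1.29 for Myh9 and 1.14 for Tpm4. Tpm1 had 376, 420, 713 and 783, and Vim had 516, 612, 1144 and 1202, with the sKO pair well above the Ctrl pair in each (ratios of 1.88 and 2.08).

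By the limma test H4K20me1 rose at Vim (log2 fold change 1.06 ± 0.27, adjusted p = 0.000138) and at Tpm1 (0.91 ± 0.27, adjusted p = 0.00109) on the deposited scale. It was not called at Myh9 (0.37 ± 0.28, 95% interval -0.18 to 0.93, adjusted p = 0.196), Tpm4 (0.20 ± 0.27, interval -0.33 to 0.72, adjusted p = 0.468) or Actg1 (0.13 ± 0.41, interval -0.69 to 0.94, adjusted p = 0.767). These are 2 of 5 genes called higher, beside 92.3% of the 13750 genes tested, and 0 of 5 called lower, beside 0.0%. Both sKO libraries lay above both Ctrl in 4 of 5, beside 96.5%, and below in none, beside 0.0364%. An unadjusted p under 0.05 was reached by 2 of 5, beside 90.3%. The median over all genes was a log2 fold change of 1.11, and relative to it the 5 genes were at -0.05 (Vim), -0.20 (Tpm1), -0.74 (Myh9), -0.92 (Tpm4) and -0.99 (Actg1). Only 0.909% of all genes had a smaller fold change than Actg1, 1.49% than Tpm4 and 3.59% than Myh9, while Tpm1 stood at the percentile 31.6 and Vim at 45.3. Since each of the 5 genes had 1 peak, the test per peak called the same 2 higher, beside 90.0% of 41008 peaks called higher and 0.00244% called lower. Of these peaks 93.8% had both sKO libraries above both Ctrl, 0.0293% had both below and 87.0% had an unadjusted p under 0.05, and for the members the counts were again 4, 0 and 2.

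**Figure D4:**
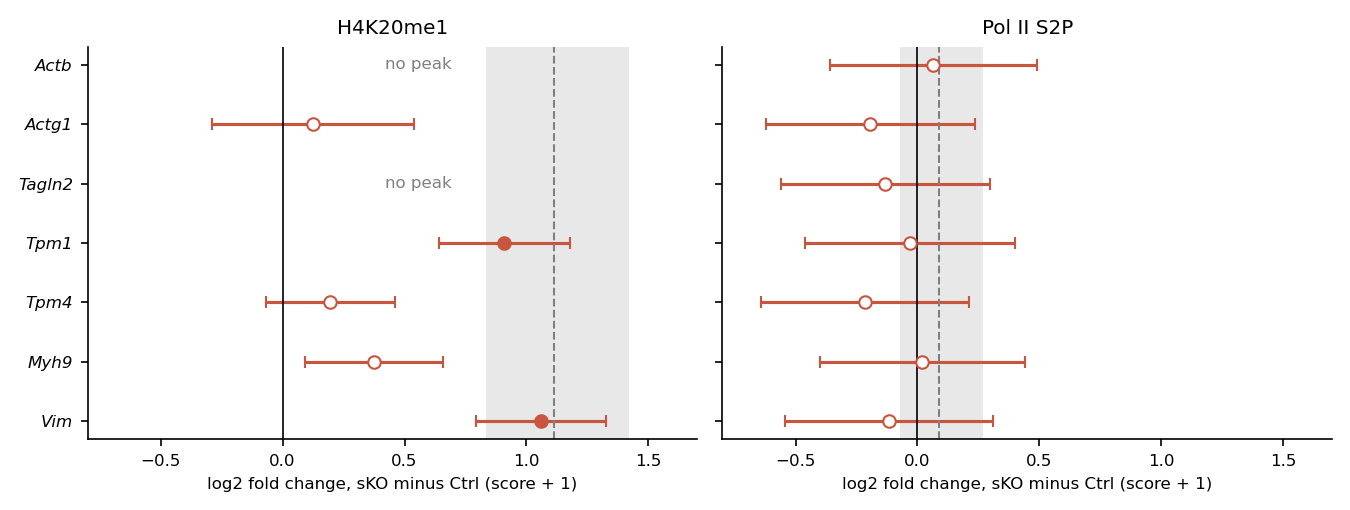
log2 fold change of the summed score, sKO minus Ctrl (horizontal axis, points with SE bars, 2 libraries per genotype), for H4K20me1 (left) and Pol II S2P (right), with filled points for called genes. The dashed line is the median of all genes tested and the grey band their middle 50%; for H4K20me1 the points of Actg1, Tpm4 and Myh9 lie left of the band and those of Tpm1 and Vim within it, and for Pol II S2P the 7 points lie from -0.22 to 0.07.

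The direction at these genes depended on the scale between libraries. Scaling to equal totals takes out a change shared by most genes, so a lower call then means lower relative to other genes. The study reported more H4K20me1 in the mutant cells by Western blot and immunofluorescence. With the libraries scaled to equal totals the median of all genes was 0.13, both sKO libraries were below both Ctrl at Actg1 (171, 144.7, 87.5 and 86.3), Myh9 (5121, 4576, 3242 and 3107) and Tpm4 (884.6, 807.3, 522.8 and 459.8), and all 3 were called lower, while Tpm1 (-0.07) and Vim (0.08) were not called. Of all 13752 genes tested in that setting, 783 were called lower. Within-library percentiles, which no scaling changes, re-express the same scores and are no separate evidence. Per kb of gene, Actg1 stood at the percentiles 75.4 and 69.3 in Ctrl and 45.0 and 44.7 in sKO, Myh9 at 77.1 and 73.3 against 57.6 and 55.5, and Tpm4 at 57.8 and 54.7 against 34.0 and 30.2. Tpm1 stood at 41.2 and 36.1 against 31.6 and 31.8, and Vim at 88.6 and 86.9 against 88.7 and 88.2. These values divide the whole score of a peak by the length of the gene, although the peak of Actg1 lay almost wholly past the gene and that of Vim was 24.2 kb long over a gene of 8.9 kb. By the summed score itself Actg1 stood at the percentiles 12.8 and 9.33 in Ctrl and 1.11 and 1.51 in sKO, and Vim at 53.4 and 50.5 against 50.6 and 49.7. In the percentiles per kb of gene, Actg1, Myh9, Tpm4 and Tpm1 stood lower in both sKO libraries than in both Ctrl libraries, and Vim overlapped. At Tpm1 the scores with equal totals overlapped all the same (649.6, 542.5, 562.2 and 567.9). The deposited scores per kb themselves were not lower in sKO. How many of all genes had such an order, in percentiles or with equal totals, was not counted.

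The H4K20me1 peaks beside Actg1 and Tagln2 had larger ratios than the peak of Actg1. Nearly any peak would have: only 0.924% of all peaks tested had a smaller log2 fold change than the Actg1 peak. The median over all peaks was a log2 fold change of 1.14. The H4K20me1 peak listed with Fscn2, upstream of Actg1, had 132, 209, 435 and 401, a ratio of sKO to Ctrl means of 2.45, against 1.09 for the peak of Actg1. At Tagln2, which had no H4K20me1 peak, the peaks on either side were listed with Igsf9 (497, 534, 1493 and 1510, a ratio of 2.91) and Gm37125 (63, 66, 302 and 244, a ratio of 4.23). These 3 peaks were named after their values were seen, as the nearest listed peaks.

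Pol II S2P peaks of the 7 genes fell into 71 that overlapped an H4K20me1 peak, 49 of them in Myh9, and 30 that did not. The median log2 fold change of Pol II S2P was 0.06 over the 65 of the first set that were tested and -0.28 over the 30 of the second, which include the 6 start peaks. The sets differ in gene and in position as well as in the mark, and no test of the difference was made.

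Other genes of the cytoskeleton, 66 in all, were gathered into lists by function. On the deposited scale H4K20me1 was called higher at 32 of the 40 that were tested and lower at none, beside 92.3% and 0.0% of all genes, with a median log2 fold change of 0.86 against 1.11 over all genes. The same 92.3% stands beside the counts of the single lists, of which those with under 10 genes tested are too short to be set against it. Of the 20 actin-binding protein genes tested 15 were called, and the 4 with the highest scores in Ctrl were Capzb (capping protein, 0.21 ± 0.29, not called), Vcl (vinculin, 0.50 ± 0.28, not called), Rdx (radixin, 0.62 ± 0.28, called) and Actr3 (actin-related protein of the Arp2/3 complex, 0.33 ± 0.28, not called). Non-muscle myosin chains were called at 4 of 4, with Myh10, the heavy chain of myosin IIB, at 0.61 ± 0.29 and Myh14 at 1.15 ± 0.28. The muscle actins Acta2 (0.85 ± 0.27) and Actg2 (0.93 ± 0.29) were both called, and Tpm3, the one other tropomyosin gene tested, was not (0.47 ± 0.27). Intermediate filament genes were called at 5 of 6, the exception being Des (desmin, -0.04 ± 0.31, scores 187, 304, 250 and 216), and tubulin and microtubule genes at 3 of 4. SRF cofactor genes, which link actin to transcription through the CArG box, were called at 3 of 3, with Mrtfa at 1.21 ± 0.28 and Mrtfb at 1.01 ± 0.29.

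For Pol II S2P, 55 of the 66 were tested and none was called, with a median log2 fold change of -0.0026 against 0.09 over all genes. Srf had 560, 769, 750 and 469, Mrtfa 960, 1193, 1348 and 984, and Mrtfb 323, 409, 522 and 380, each with overlapping groups. Sarcomere genes were called higher in H4K20me1 at 13 of 14 with a median of 1.26, and cytosolic ribosomal protein genes at 9 of 14 with a median of 0.78, beside 92.3% and 1.11 over all genes. For Pol II S2P none of 10 and none of 58 were called.

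The genes whose scores lay nearest to each member over all 8 libraries (Euclidean distance of log2(score + 1), among 5849 genes tested for both antibodies) were Slc6a6 (0.352) and Cdon (0.488) for Myh9, Peg3 (0.495) and Hm13 (0.564) for Tpm1, Lrrc75a (0.627) and Mto1 (0.729) for Vim and Wsb1 (0.71) and Srsf1 (0.718) for Tpm4. Actg1 had no near neighbour of that closeness, with Arid5b at 1.16 and H3-3a at 1.33, and Actb and Tagln2 could not be placed because they had no H4K20me1 peak. No member was among these neighbours of another.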

How the data were processed

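MuSCs were profiled by CUT&RUN. The authors assessed reads with FastQC 0.11.8, trimmed them with Trimmomatic 0.39, aligned them to mm10 (GRCm38) with STAR 2.7.3a keeping unique alignments, and removed duplicates with Picard 2.21.7, and per the submitters' processing notes SICER 0.0.41 and MACS2 2.1.1 were also used. The deposited score is a whole number per union peak and library, described as coverage normalised by spike-in DNA of S2 cells. A deposited fraction gives the part of each peak inside its gene, and was used only in an alternative. The authors tested with DESeq2, which was not used here because the scores are not read counts. No read depth or counting interval was derived from the scores, and whether the scale follows the spike-in was not checked. Peak coordinates are as deposited, and whether they count from 0 or 1 could shift them by 1 base. Gene coordinates are those of the deposited tables, which for Tpm4 begin earlier than in GENCODE M21 (72134975) and match it for the other 6 genes.

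Scores were summed by gene identifier over all peaks listed with it. Each antibody was fitted with limma 3.58.1 (lmFit, eBayes with trend) in R 4.3.3 on log2(score + 1), genotype as the factor, over autosomal genes with a mean over 50 or peaks with a mean over 20. The log2 fold change of low scores is understated. The minimum for genes, the limits of a call, and leaving out X and Y were taken from the study's methods, and the minimum for peaks was set here. In simulated data with 200 changed features, 196 of 200 were recovered for H4K20me1 genes with 6 false calls, and 173 of 187 tested for Pol II S2P genes with 14 false calls, but for Pol II S2P peaks only 81 of 167 tested, with 1 false call. The simulated libraries shared a common scale, whereas the real ones differed in total score. These recoveries therefore do not give the power of the fits to the real scores. Python 3.11.15 with pandas 2.3.3 was used for levels and positions. Members and lists were chosen with earlier results of these data known. Named genes were the members and, for each list of other cytoskeletal genes, at most 4 with the highest Ctrl mean. The 2 IgG libraries were not analysed here. p-values use a variance that limma draws largely from all features of similar score, not only from the 2 libraries per genotype of the gene or peak itself. Alternatives were equal totals, quantile normalisation, a pseudocount of 10, no minimum, each library left out, a replicate block and only peaks with at least 50% of their length in the gene.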

Additional observations from a re-analysis of the deposited data

How the results depend on the processing

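H4K20me1 calls at these genes depended on the scale between libraries. With equal totals 3 of 5 genes were called, all lower: Actg1 (-0.85), Myh9 (-0.61) and Tpm4 (-0.78), with Tpm1 at -0.071. Of all 13752 genes tested in that setting 2855 were called higher and 783 lower. On the deposited scale these counts were 12690 and 0 of 13750. With quantile normalisation 3 were called, all lower: Actg1 (-1.36), Myh9 (-0.51) and Tpm4 (-1.0), with Tpm1 at -0.32 and Vim at -0.089. Of all 13750 genes tested there 1422 were called higher and 1531 lower. Per peak, equal totals called 3 of the 5 lower and quantile normalisation 2. Of all 41008 peaks tested 9270 and 4753 were then called higher and 1813 and 4768 lower (36898 and 1 on the deposited scale). Leaving out 1 library gave between 0 and 3 called genes and between 0 and 3 called peaks: 0 without sKO replicate 2, 1 (Vim) without sKO replicate 1, 2 without Ctrl replicate 1 and 3 (Myh9 added) without Ctrl replicate 2, when 5249 to 13376 of all genes were called, in a fit that assumes the lone library to vary like the pair. With only peaks at least 50% inside the gene, 1 gene was called of 3 tested, since Actg1 and Vim had no such peak. A pseudocount of 10 and no minimum left the count at 2.

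Pol II S2P per gene had no call at these genes under any of these settings. Equal totals called 108 of 8538 genes higher and 73 lower, and quantile normalisation 112 and 29 of 8531. Its fold changes turned sign at Actb (-0.075 with equal totals, -0.036 with quantile normalisation, -0.47 with peaks mostly in the gene) and Myh9 (-0.12 and -0.049 with the first pair of settings), and on leaving out 1 library for every gene but Tpm4. With peaks mostly in the gene Vim moved from -0.12 to -0.50, still not called. The ranges were -0.28 to 0.41 at Actb, -0.51 to 0.12 at Actg1, -0.25 to 0.29 at Myh9, -0.28 to 0.016 at Tagln2, -0.18 to 0.12 at Tpm1, -0.43 to -0.0049 at Tpm4 and -0.36 to 0.12 at Vim. Per peak, 5 of 95 were called lower with equal totals (1 each in Actb, Tagln2 and Tpm1 and 2 in Vim). Of all 44548 peaks tested there 741 were called higher and 237 lower. Quantile normalisation called 2 of the 95 lower (Actb and Tpm1), beside 332 of 44587 peaks higher and 73 lower. The Tpm1 peak was in both settings the second peak over transcript starts. With equal totals 1 of the Vim peaks was its start peak. The cause was not tested.

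The labels do not say whether the replicate numbers pair the samples. Deviations of libraries with the same number correlated at 0.041 over H4K20me1 genes and at -0.043 over Pol II S2P genes. This correlation cannot see a shift shared by all genes, so pairing remains unknown. A replicate block called 2 genes and 2 peaks for H4K20me1 and none for Pol II S2P, and changed no call of a member. The standard errors of the members' Pol II S2P fold changes were 0.421 to 0.43 on the deposited scale and 0.091 to 0.127 with equal totals.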
